A study of Rattus norvegicus with 80 samples.

Results

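Tumors of 2 rat lines with mutations in Nf1 were compared: the 9 tumors labelled IFPS and the 9 tumors labelled PS, 18 of the 80 libraries of the series. They were taken by their labels alone, which give the tissue (tumor) and the line. Both groups come from Nf1-mutated rats, so neither is a wildtype control, and the line names IF, PS and IFPS are not spelled out in the labels. The age, the animal, the gland and any treatment of each tumor are not given in the sources used here, and the series names the samples primary tumors. Tumors are numbered 1 to 9 within a line, in the order of their accessions. In that order IFPS tumors 5 to 9 and PS tumors 8 and 9 come after all other tumors. The labels name no batch, and whether this order marks one was not tested. IFPS tumors 5 and 6 have the titles MSR2R2 and MSR2R4, which share their start. Whether they came from 1 animal is not stated, and their Spearman correlation over genes was 0.856. The comparison asks whether tumors of the 2 lines differ in gene expression. Total counts per library ran from 18222600 to 32353100 in IFPS tumors and from 17344700 to 25475100 in PS tumors.

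Nf1 encodes neurofibromin, a protein that switches Ras off by speeding the hydrolysis of its bound GTP. Cells that lose neurofibromin keep more Ras in its active form, which drives the RAF, MEK and ERK kinases. The labels call these samples tumors, and the series is on the mammary gland. A mammary tumor holds epithelial tumor cells together with fibroblasts, vessels, immune cells and fat of the surrounding pad. RNA of whole tumor tissue is a mixture of all of these.

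The count table carries Ensembl identifiers, and 0 of its 32883 identifiers could be paired with a gene symbol. Genes are therefore described through where they are expressed in normal tissue of the same series. A gene was called MEC-enriched when wildtype mammary epithelial cells (MECs, cultured) had at least 4-fold more of it than wildtype adipocytes and than wildtype fibroblasts, each at an adjusted p under 0.05. Adipocyte-enriched and fibroblast-enriched genes were defined in the same way. The fibroblasts were cultured as well, so in contrasts with adipocytes cell type and culture cannot be told apart. Pad-only genes were at least 4-fold higher in wildtype whole pads than in each of the 3 cell types. Which cells express them was not tested. These sets held 902 MEC-enriched, 1052 adipocyte-enriched, 310 fibroblast-enriched and 1015 pad-only genes, and no tumor was used to define them. The score of a set is the mean log2 CPM (counts scaled to a common library size) of its genes, computed over all libraries on 1 scale.

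In gene expression 6 of the 9 IFPS tumors lay among the PS tumors, and IFPS tumors 6, 8 and 9 stood apart. Of the variance in log2 CPM, 42.7% lay on the first principal component and 16.9% on the second. On the first PS tumors ran from -69.6 to 10.9 and the 6 other IFPS tumors from -42.5 to 7.46. IFPS tumor 6 lay at 137.1, tumor 8 at 155.9 and tumor 9 at 219.6. The second component separated IFPS tumor 8 (162.7) from IFPS tumors 6 (-88.6) and 9 (-30.7). These 3 tumors were thus far from PS tumors and also from each other.

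**Figure D1:**
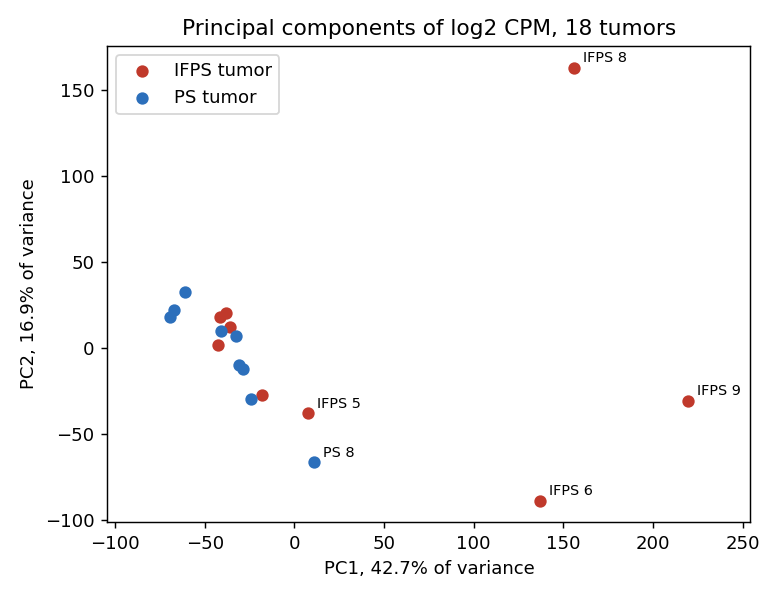
First (x axis) and second (y axis) principal component of log2 CPM of the 18 tumors, 1 point per tumor, IFPS in red and PS in blue. The PS tumors and 6 IFPS tumors lie between -69.6 and 10.9 on the first component, and IFPS tumors 6, 8 and 9 lie at 137.1 and above.

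Rank correlations over genes gave the same arrangement. PS tumors correlated with each other at 0.900 to 0.980 (Spearman, median 0.956, 36 pairs). The 6 IFPS tumors other than 6, 8 and 9 correlated with PS tumors at 0.902 to 0.980 (median 0.960, 54 pairs). IFPS tumors 6, 8 and 9 correlated with PS tumors at 0.734 to 0.859 (median 0.781, 27 pairs). Among themselves IFPS tumors 6, 8 and 9 correlated at 0.790 to 0.889. IFPS tumors 1 to 4 correlated with each other at 0.976 to 0.990 (6 pairs). Points of such a correlation share library and depth, and genes are not independent replicates, so no p is given. The tumor nearest to each tumor was of the same line for 8 of 9 IFPS and for 7 of 9 PS tumors. The exceptions were IFPS tumor 7, nearest to PS tumor 7, and PS tumors 2 and 5, nearest to IFPS tumors 3 and 1. Among the 8 IFPS matches, tumors 6 and 9 were nearest to each other (0.889) and tumor 8 was nearest to tumor 9 (0.829).

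The spread between tumors was larger in IFPS than in PS. The SD of log2 CPM was larger in IFPS tumors for 83.6% of the 15966 genes tested, with a median SD of 0.62 against 0.37 in PS tumors. Over the 6 IFPS tumors without 6, 8 and 9 the median SD was 0.30, and 33.7% of genes had a larger SD than in PS tumors. The wider spread of the IFPS group was found with these 3 tumors and not without them. They were set aside after being seen to lie apart, which lowers an SD, while all 9 PS tumors were kept. In MEC-enriched genes the median SD was 2.17 in IFPS and 0.79 in PS tumors, the widest gap of the 4 sets. In pad-only genes, by comparison, it was 1.34 against 1.07.

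The number of genes far from a typical PS tumor shows the size of these departures. Each tumor was set against the median of the PS tumors (for a PS tumor, of the other 8), and genes more than 4-fold away were counted. Between 138 and 1141 genes (median 464) were this far away in a PS tumor. In IFPS tumors 1 to 4 the counts were 169, 192, 161 and 210. IFPS tumor 7 had 576 and IFPS tumor 5 had 746, both inside the range of PS tumors. IFPS tumor 6 had 3116 such genes (19.5% of those tested), tumor 8 had 3337 (20.9%) and tumor 9 had 3757 (23.5%). In each of these 3 more genes were lower than higher: 1590 against 1526 in tumor 6, 2121 against 1216 in tumor 8 and 2257 against 1500 in tumor 9.

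**Figure D2:**
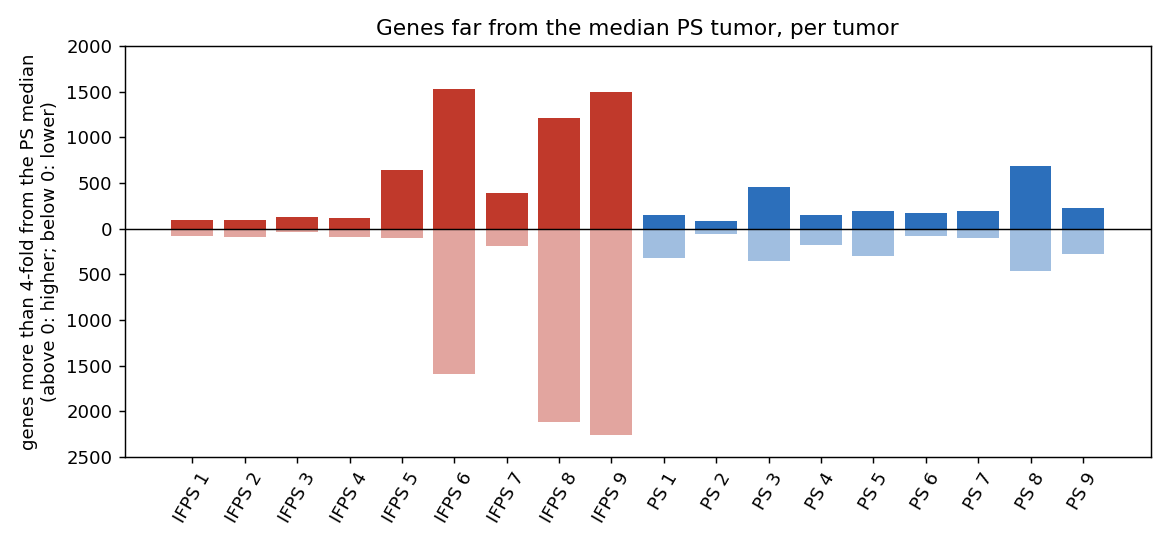
Genes more than 4-fold higher (bars above 0) or lower (pale bars below 0) than the median PS tumor, for each of the 9 IFPS (red) and 9 PS tumors (blue). IFPS tumors 6, 8 and 9 have 3116 to 3757 such genes and the other 15 tumors 138 to 1141.

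MEC-enriched genes were low in these 3 tumors. The MEC-enriched score was 2.74 to 3.11 in the 9 PS tumors (median 2.96) and 2.80 to 2.99 in 6 IFPS tumors. It was 0.78 in IFPS tumor 6, -0.31 in tumor 8 and -1.02 in tumor 9. These 3 values lay below every other tumor of both lines and below every pad of the 2 lines, which scored 1.67 to 2.48. The group means were 1.88 ± 1.61 in IFPS and 2.94 ± 0.11 in PS tumors (SD, n = 9 each), a difference of -1.06 that became -0.02 without IFPS tumors 6, 8 and 9. Of the 826 MEC-enriched genes tested in tumors, 540 were more than 4-fold below the PS median in tumor 6, 580 in tumor 8 and 642 in tumor 9. In the other IFPS tumors 7 to 51 were, and in PS tumors 11 to 77. In a bulk sample fewer cells of a type and less RNA per cell cannot be told apart.

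Adipocyte-enriched genes distinguished the 3 tumors from each other. The adipocyte-enriched score ran from 1.53 to 2.93 in PS tumors (median 1.93). IFPS tumor 6 scored 4.19, above all 12 pads of the 2 lines (3.14 to 3.83), and IFPS tumor 9 scored 3.19. IFPS tumor 8 scored 1.54, at the low end of the PS tumors. Of the 949 adipocyte-enriched genes tested, 418 were more than 4-fold above the PS median in tumor 6, 303 in tumor 9 and 106 in tumor 8, where another 210 were more than 4-fold below it. PS tumor 8 had the highest score of its line (2.93), with 170 genes this far up, and IFPS tumor 5 (2.75) had 127. The groups as a whole overlapped, at 2.44 ± 0.83 in IFPS and 2.03 ± 0.44 in PS tumors (SD, n = 9 each).

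Fibroblast-enriched genes lay above the PS median in 8 of 9 IFPS tumors, and the lines overlapped. The score was 1.002 to 2.17 in IFPS tumors (median 1.42) and 0.52 to 1.55 in PS tumors (median 1.04). IFPS tumors 9 (2.17), 6 (2.04) and 5 (1.96) lay above all PS tumors, and IFPS tumor 8 (1.45) did not. The difference of the means was 0.49, and 0.32 without IFPS tumors 6, 8 and 9. All tumors but IFPS tumor 9 lay below the pads of the 2 lines, which had 2.10 to 2.56. Pad-only genes did not separate the lines, at -0.11 to 1.24 in IFPS (median 0.52) and -0.18 to 1.35 in PS tumors (median 0.40).

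**Figure D3:**
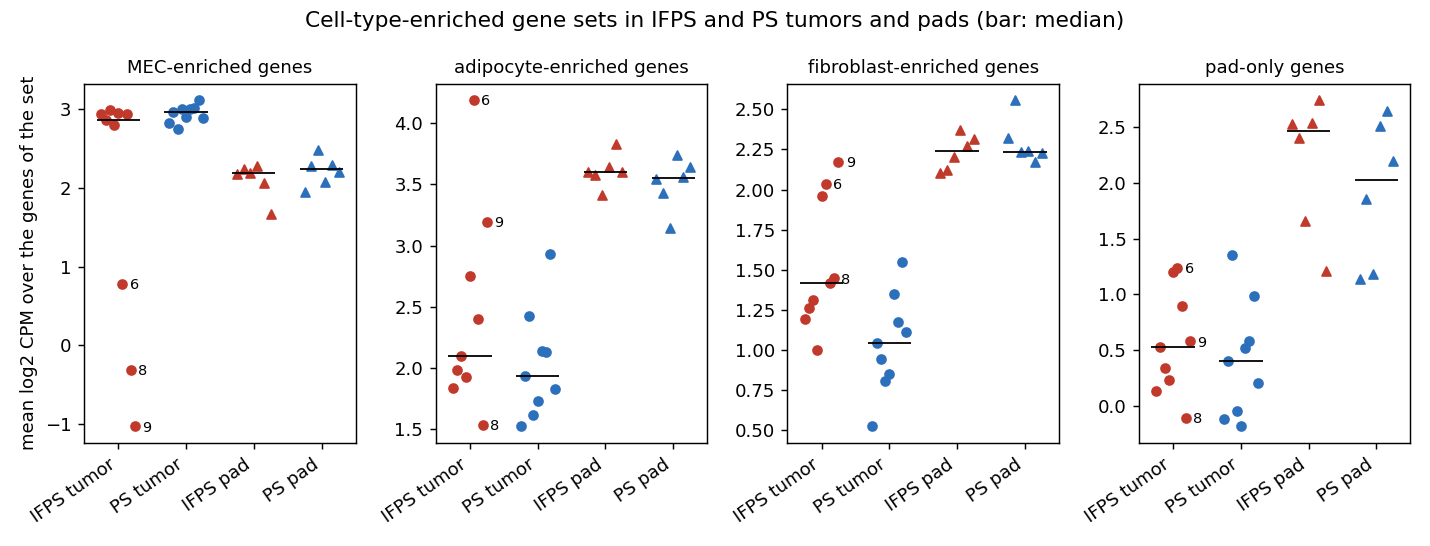
Mean log2 CPM (y axis) over MEC-enriched, adipocyte-enriched, fibroblast-enriched and pad-only genes in IFPS and PS tumors (9 each, circles) and pads (6 each, triangles), with the median as a bar. IFPS tumors 6, 8 and 9 are numbered: all 3 have MEC-enriched scores of 0.78 or less, and only tumors 6 and 9 have adipocyte-enriched scores above those of all PS tumors.

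IFPS tumors 6, 8 and 9 shared more of their low genes than of their high genes. All 3 had 846 genes in common that were more than 4-fold below the PS median, and 439 of these (51.9%) were MEC-enriched, a set that held 5.17% of all tested genes. Pad-only genes were 75 of them (8.87%, against 5.09% of all tested genes). Genes low in normal tissue, with a mean under 0.5 CPM in every normal group, were 76 (8.98%, against 4.45%). In contrast, 290 genes were more than 4-fold above it in all 3, among them 39 adipocyte-enriched (13.4%), 31 pad-only (10.7%), 19 fibroblast-enriched (6.55%) and 8 MEC-enriched genes (2.76%). Of all tested genes 5.94%, 5.09%, 1.68% and 5.17% belonged to these sets, in the same order. Of the 290 high genes, 197 belonged to none of the gene sets. Tumors 6 and 9 were most alike on the high side, sharing 807 genes, 52.9% of those of tumor 6 and 53.8% of those of tumor 9. Tumor 8 shared 420 of its high genes with tumor 6 (34.5% of those of tumor 8) and 512 with tumor 9 (42.1%). High genes found in tumor 8 and in neither other tumor numbered 574, and 47 of them were MEC-enriched.

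Set against normal tissue, IFPS tumor 6 was closest to the whole gland. Its Spearman correlation over genes was 0.953 with the mean of wildtype pads and 0.902 with wildtype adipocytes, against 0.870 to 0.914 and 0.787 to 0.829 in PS tumors. IFPS tumor 9 correlated at 0.895 with wildtype pads, 0.863 with wildtype adipocytes and 0.795 with wildtype MECs. IFPS tumor 8 correlated at 0.851 with wildtype pads, below every PS tumor, and at 0.860 with wildtype fibroblasts. In the latter, IFPS tumors 1, 3, 6 and 9 (0.846 to 0.850) also lay just above the PS tumors (0.806 to 0.845). PS tumors correlated with wildtype MECs at 0.854 to 0.902, and IFPS tumors 6, 8 and 9 at 0.828, 0.838 and 0.795. The 10 most abundant genes held 16.9% of the counts of IFPS tumor 9 and 12.2% of tumor 6, against 4.83% to 8.87% in PS tumors. Tumor 9 also had the lowest total of the IFPS tumors, and the part of these values in its gene expression was not tested.

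Across all genes the 2 lines were then compared by a fit of the 23 tumors of the 3 mutated lines, in which 5 IF tumors served only to estimate the spread. At an adjusted p under 0.05, edgeR (quasi-likelihood test, p-values adjusted after Benjamini and Hochberg) called 0 of 15966 genes (0%). It gave 3537 genes (22.2%) at an unadjusted p under 0.05, of which 2524 (71.4%) were higher in IFPS. The smallest adjusted p was 0.0609 and was shared by 492 genes, so in this fit the result lay just outside the threshold. The fit takes the same spread per gene in all lines, while the median SD was 0.62 in IFPS and 0.37 in PS tumors. At an adjusted p under 0.1 the same test gave 1389 genes (8.7%), 1118 higher and 271 lower in IFPS. DESeq2 gave 1173 genes (7.35%) at an adjusted p under 0.05, 910 higher and 263 lower. Of the other alternatives some passed the threshold or lay nearer to it, and some lay further away. ENSRNOG00000017037, at 0.0609 in the main fit, had 0.0407 to 0.109 by edgeR when 1 tumor was left out. With only IFPS and PS tumors fitted it had 0.103 by edgeR. By limma with a variance per line its adjusted p was 0.276.

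The 9 values of a line almost never separated fully from those of the other. The lines did not overlap for 1 gene higher in IFPS (0.00626%) and for 4 genes lower in IFPS (0.0251%). The median log2 fold change of all tested genes was 0.03.

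By set, more adipocyte-enriched and fibroblast-enriched genes were higher than lower in IFPS, and more MEC-enriched genes were lower than higher. Of 949 adipocyte-enriched genes 329 were higher and 31 lower in IFPS at an unadjusted p under 0.05, with a median log2 fold change of 0.54 against 0.03 over all tested genes. Of 269 fibroblast-enriched genes 107 were higher and 11 lower (median 0.85), and of 813 pad-only genes 206 were higher and 67 lower (median 0.19). Of 826 MEC-enriched genes 48 were higher and 103 lower, with a median of -0.57. The share with an unadjusted p under 0.05 was 37.9% in adipocyte-enriched, 43.9% in fibroblast-enriched and 33.6% in pad-only genes, above the 22.2% of all genes, and 18.3% in MEC-enriched genes, below it. Without IFPS tumors 6, 8 and 9 these medians became -0.05 for adipocyte-enriched, 0.22 for fibroblast-enriched, -0.11 for pad-only and -0.15 for MEC-enriched genes. Over all genes 523 were then higher and 939 lower in IFPS at an unadjusted p under 0.05, so the whole fit leaned to lower. Of the MEC-enriched genes 16 were higher and 105 lower at this p, 14.7% of 821 tested. This share was 14.9% in pad-only, 13.8% in fibroblast-enriched and 10.7% in adipocyte-enriched genes and 9.28% in all genes, so it was raised in more sets than 1. DESeq2, which called 7.35% of all genes, called 147 adipocyte-enriched genes (15.5%; 142 higher, 5 lower) and 54 fibroblast-enriched genes (20.1%; 50 higher, 4 lower). It called 104 pad-only genes (12.8%; 79 higher, 25 lower) and 48 MEC-enriched genes (5.81%; 12 higher, 36 lower). With the MEC-enriched score of each tumor as a covariate, the log2 fold change of ENSRNOG00000003506 was 0.20 in place of 0.59, and that of ENSRNOG00000024435 2.30 in place of 3.71. Those of ENSRNOG00000017037 (-0.59 in place of -0.68) and ENSRNOG00000004595 (-0.66 in place of -0.65) moved less. In this fit the adjusted p of the 4 identifiers was 0.488 to 0.804 by edgeR, in place of 0.0609. The lowest scores were those of IFPS tumors 6, 8 and 9, so score and line cannot be fully told apart.

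The count of genes depended on which tumors were in the fit. Leaving out IFPS tumor 1, 2, 3, 4 or 7 gave between 591 and 756 genes at an adjusted p under 0.05 by edgeR's test. The lowest count, without IFPS tumor 3, held 535 higher and 56 lower genes, and the highest, without IFPS tumor 7, held 629 and 127. Leaving out IFPS tumor 5, 6, 8 or 9 gave 0 genes. Leaving out any of the 9 PS tumors gave 0 genes as well, apart from PS tumor 9, where the count was 1. Without IFPS tumors 6, 8 and 9 together, a choice made after the data were seen, 0 of 15753 genes passed (1462, or 9.28%, at an unadjusted p under 0.05), and the smallest adjusted p was 0.0842. A covariate for the MEC-enriched score of each tumor also gave 0 genes, with 402 higher and 570 lower at an unadjusted p under 0.05 (6.09%).

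**Figure D4:**
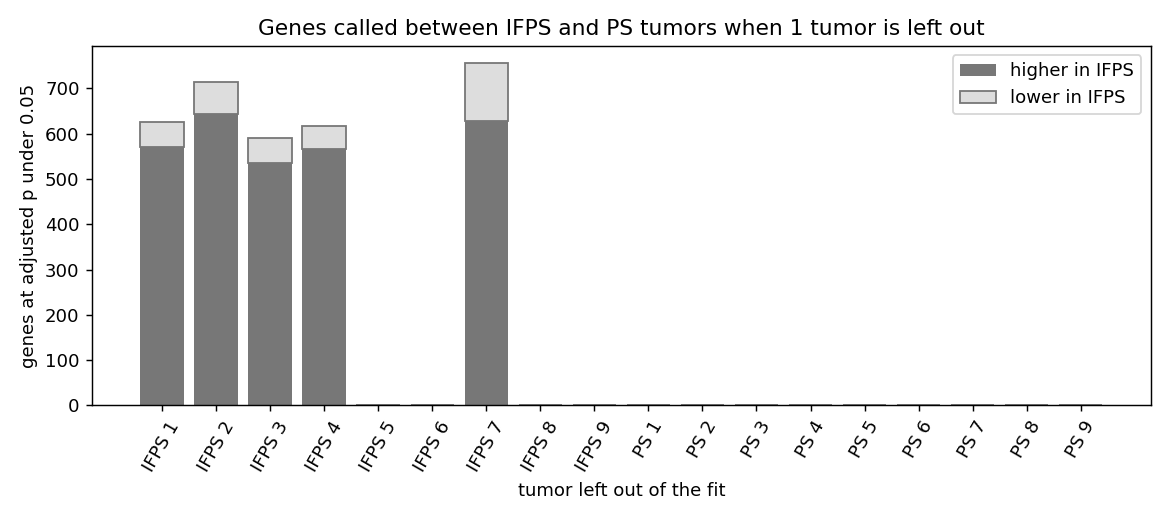
Genes at an adjusted p under 0.05 between IFPS and PS tumors (y axis, edgeR) when the tumor on the x axis is left out, split into genes higher (dark) and lower (pale) in IFPS. Leaving out IFPS tumor 1, 2, 3, 4 or 7 gives 591 to 756 genes, and every other tumor gives 0 or 1.

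The 5 fits with many calls agree on 505 genes, 469 higher and 36 lower in IFPS. They were chosen by their difference between the lines, so the following values describe them and test nothing. DESeq2 on all tumors also called 401 of them. The 469 higher genes had a median log2 fold change of 2.79 in the fit of all tumors and of 0.56 without IFPS tumors 6, 8 and 9. Their median distance from the PS median, in log2 CPM, was 3.24 in IFPS tumor 6, 2.93 in tumor 8 and 3.58 in tumor 9. It was 1.33 in IFPS tumor 5 and 0.20 to 0.59 in the other IFPS tumors, inside the range of -0.76 to 0.81 in PS tumors. Among the 469 genes were 97 adipocyte-enriched (20.7%), 56 pad-only (11.9%), 28 fibroblast-enriched (5.97%) and 8 MEC-enriched genes (1.71%). Of all tested genes 5.94%, 5.09%, 1.68% and 5.17% belonged to these sets, in the same order.

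The 36 lower genes had another pattern. Their median log2 fold change was -1.53 with all tumors and -1.29 without IFPS tumors 6, 8 and 9, and all 36 then remained lower at an unadjusted p under 0.05. Their median distance from the PS median was -1.76, -1.65 and -1.67 in IFPS tumors 6, 8 and 9 and -0.68 to -1.08 in the 6 others. In PS tumors it ran from -0.62 to 0.61. All IFPS tumors lay below all PS tumors in this median, at the nearest -0.68 in IFPS tumor 3 against -0.62 in PS tumor 5. These genes were chosen as lower in IFPS, so neither this order nor the unadjusted p tests a difference. Of the 36, 5 (13.9%) were low in normal tissue, with a mean under 0.5 CPM in every normal group, against 4.45% of all tested genes. Another 3 (8.33%) were MEC-enriched, 2 (5.56%) pad-only and 1 (2.78%) adipocyte-enriched, near the shares of these sets among all tested genes.

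No identifier passed the threshold, so 4 are printed that were chosen after their values were seen: in each direction the one with the smallest p among identifiers of at least 1 CPM, and then the one with the smallest p among those without overlap, or the next by p where both are the same. All 4 had an adjusted p of 0.0609 by edgeR, and all 4 passed 0.05 by DESeq2 and in the 5 fits that left out IFPS tumor 1, 2, 3, 4 or 7. In the 13 other fits that left out 1 tumor none of the 4 passed, at an adjusted p of 0.0578 to 0.109 by edgeR. By limma with a variance per line all 4 had an adjusted p of 0.276.

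ENSRNOG00000024435, a fibroblast-enriched gene, had 0.620 to 16.6 CPM in IFPS tumors (median 1.14) and 0.0467 to 0.696 CPM in PS tumors (median 0.278), from 18 to 218 and from 1 to 17 counts. The log2 fold change was 3.71 ± 0.73 (SE), and 7 of 9 IFPS tumors were above all PS tumors. IFPS tumor 9 had 16.6 CPM, tumor 8 had 5.83, tumor 5 had 5.27 and tumor 6 had 4.53, and the others had 1.14 or less. Without IFPS tumors 6, 8 and 9 the log2 fold change was 2.37 ± 0.63. Normal tissue had more than most tumors, with 7.29 to 12.7 CPM in IFPS pads, 6.81 to 13.2 in PS pads and 18.8 to 31.0 in IFPS fibroblasts.

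ENSRNOG00000003506 was the single identifier that was higher in all 9 IFPS tumors than in all 9 PS tumors. IFPS tumors had 55.7 to 127.1 CPM (median 60.3) and PS tumors 49.5 to 55.2 (median 52.7), a log2 fold change of 0.59 ± 0.16. IFPS tumors 6, 8 and 9 had 127.1, 120.4 and 111.1 CPM, and the 6 others 55.7 to 66.5. Without these 3 tumors the log2 fold change was 0.16 ± 0.07. The separation was narrow, since the lowest IFPS tumor and the highest PS tumor differed by less than the SD of 2.22 CPM among PS tumors. In fibroblasts the direction was opposite, at 91.3 ± 2.73 CPM in IFPS and 100.8 ± 1.20 in PS (SD, n = 3 each), with a log2 fold change of -0.14 ± 0.05 and an adjusted p of 0.0336 by edgeR.

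ENSRNOG00000017037 was lower in all 9 IFPS than in all 9 PS tumors. IFPS tumors had 6.35 to 10.4 CPM (median 8.58) and PS tumors 10.6 to 19.6 (median 13.7), a log2 fold change of -0.68 ± 0.14. IFPS tumors 6, 8 and 9 had 6.35, 7.59 and 7.86 CPM, and the log2 fold change was -0.57 ± 0.14 without them (adjusted p of 0.321 by edgeR). Since the lines did not overlap, leaving out IFPS tumors could not turn its sign. Pads had 8.75 to 10.6 CPM in IFPS and 8.59 to 11.02 in PS. CPM was scaled within each tissue, so tumor and pad levels are set side by side only roughly. The test of that contrast, tumor against pad in IFPS minus the same in PS, gave -0.65 ± 0.18 with an adjusted p of 0.179 by edgeR.

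ENSRNOG00000004595 had 13.3 to 22.7 CPM in IFPS tumors (median 16.2) and 19.6 to 34.4 in PS tumors (median 26.5). The log2 fold change was -0.65 ± 0.13, and 7 of 9 IFPS tumors were below all PS tumors. It was -0.66 ± 0.14 without IFPS tumors 6, 8 and 9. IFPS pads had 11.5 to 18.05 CPM and PS pads 11.7 to 21.4.

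**Figure D5:**
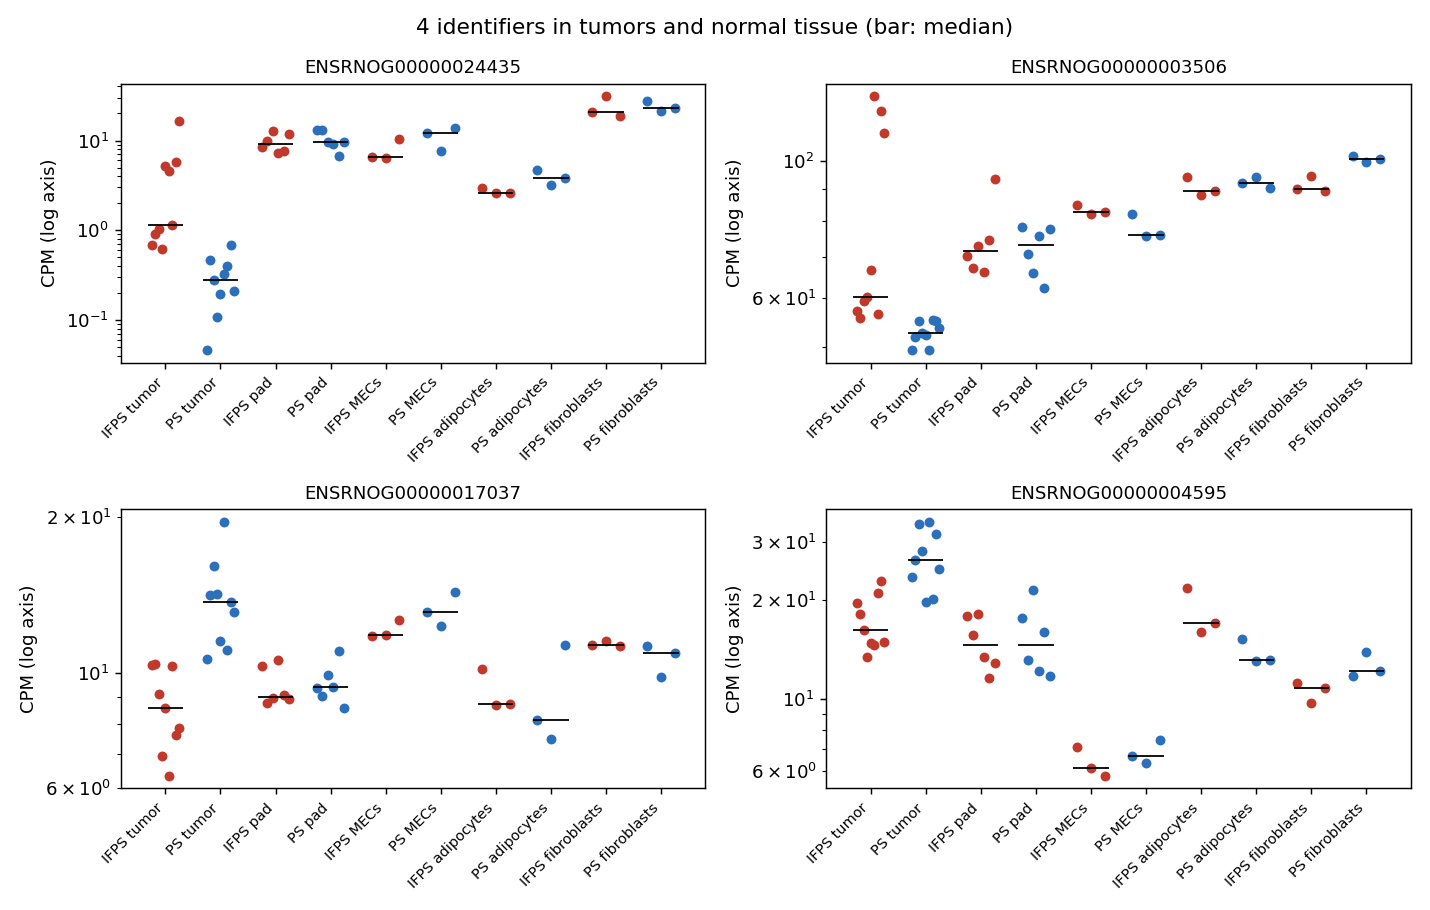
CPM (y axis, log scale, each tissue scaled on its own) of 4 identifiers in IFPS (red) and PS (blue) tumors (9 each), pads (6 each), MECs, adipocytes and fibroblasts (3 each), 1 point per library and the median as a bar. ENSRNOG00000003506 and ENSRNOG00000017037 do not overlap between the lines in tumors, and in pads all 4 overlap.

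The same contrast was made outside tumors, in pads and adipocytes and in cultured MECs and fibroblasts of the 2 lines. IFPS and PS pads differed in 0 of 16384 genes by edgeR (0%; 864 at an unadjusted p under 0.05). MECs differed in 10 of 14688 genes (0.0681%; 3 higher, 7 lower in IFPS) and adipocytes in 4 of 14304 (0.028%; 1 higher, 3 lower). Fibroblasts differed in 5617 of 13879 genes (40.5%), 2826 higher and 2791 lower in IFPS. Over those also tested in tumors, the absolute log2 fold change had a median of 0.50. With 3 cultured fibroblast samples per line, effects of the line and of the culture cannot be told apart.

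Genes that differed between fibroblasts of the 2 lines did not share their direction in tumors. Of the 5544 fibroblast genes also tested in tumors, 43.1% had the same sign there, against 46.2% of all 13581 genes tested in both. Genes higher in IFPS fibroblasts had a median log2 fold change of 0.00 between the tumors, and genes lower in IFPS fibroblasts had 0.11. Without IFPS tumors 6, 8 and 9 these medians were 0.01 and -0.02. The log2 fold changes of all shared genes had a Spearman correlation of -0.124 between fibroblasts and tumors, or 0.0384 without those 3 tumors. With MECs it was 0.217 over 14274 genes, or 0.156 without them, and with adipocytes -0.0117. With pads it was 0.05, and -0.0382 without the 3 tumors, so its sign turned. Tumors and normal tissue share no library, and genes are not independent, so these are descriptions. Of the 10 genes called in MECs, 7 had the same sign in tumors, near the 57.7% of all 14274 genes tested in both.

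Whether tumors departed from pads differently in the 2 lines was tested as an interaction in 1 fit of tumors and pads of the mutated lines. edgeR gave 0 of 17227 genes (0%), 2364 (13.7%) at an unadjusted p under 0.05 and a smallest adjusted p of 0.179. DESeq2 gave 237 genes, and for 93.7% of them the signed tumor minus pad log2 difference was higher in IFPS. That sign does not tell in which line tumors departed further from pads.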

How the data were processed

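RNA of whole tumors and pads, adipocytes, cultured MECs and cultured fibroblasts was sequenced as poly(A) mRNA libraries, per the labels' protocols. The deposited table holds raw read counts per Ensembl rat gene identifier. Trim Galore, STAR 2.5.2b and the build Rnor_6.0 are named in the submitters' processing notes, with no role or order; the counting tool and any use of strand are not given in the sources used here, so genes that overlap or have near-identical copies are uncertain. A reference table of 47357 rat genes matched 0 identifiers, so Nf1 and the gene lists drawn up for this work (marker, collagen, ERK target, proliferation and immune genes, among others) were not analysed here.

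Counts were tested with edgeR 4.0.16 in R 4.3.3 (quasi-likelihood test, TMM, filterByExpr, Benjamini-Hochberg). Each normal tissue had 1 fit over its 4 lines, with the set of title numbers as a covariate in pads. CPM used TMM library sizes within the tissue fitted, and log2 CPM a prior count of 2. Alternatives used DESeq2 1.42.0 and limma 3.58.1. The fits were run on simulated counts with the same spread in all groups, so a wider spread in IFPS tumors was not covered. None of 72 pairs of tumors of 1 line agreed within sampling noise (smallest chi-square per degree of freedom 35.8). Nothing says that tumors came from separate animals, so p-values measure the spread between these samples. The comparison, sets and rules were chosen with earlier results of these data known, and the pad-only and low-in-normal-tissue sets were added after seeing the data. The rule for named genes asked for identifiers past the threshold and gave none.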

Additional observations from a re-analysis of the deposited data

Results flagged for a closer look

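In 32 checks of single groups for a library far from the others, 2 stood out, and chance alone flags about 1 in 20 such checks. IFPS tumor 9 had 16.6 CPM of ENSRNOG00000024435, and the next highest IFPS tumor had 5.83 CPM. IFPS pad 6 had 93.6 CPM of ENSRNOG00000003506, and the next highest IFPS pad had 74.6 CPM. The MEC-enriched score met no such limit in IFPS tumors, because 3 of the 9 lay far below the rest and not 1.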

How the results depend on the processing

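No paired analysis was possible because the tumors carry no replicate numbers that groups share. Between IFPS and PS tumors, the count of 0 genes was the same with RLE size factors, no filter on low counts, only the 2 lines in the fit, robust estimation, limma with a variance per line, the MEC-enriched score as covariate, thinned counts, the MSR2R tumors summed and without IFPS tumors 6, 8 and 9. It was 1173 with DESeq2, 1389 at an adjusted p under 0.1, and 0 to 756 when 1 tumor was left out. In pads DESeq2 gave 33 genes and leaving out 1 pad 0 to 1. In MECs the count of 10 was 16 with no filter, 133 with DESeq2 and 6 to 13 with 1 library left out. In adipocytes the count of 4 was 102 with DESeq2 and 2 to 4 with 1 library left out. The tumor against pad contrast gave 237 with DESeq2 and 0 in all 30 fits that left out 1 library. The fibroblast count was 4227 to 4973 when 1 library was left out. The cause of these changes was not tested. The 4 identifiers kept their direction in all 28 alternatives fitted. With sets defined at 8-fold, the IFPS minus PS difference was -1.26 in the MEC-enriched, 0.47 in the adipocyte-enriched and 0.50 in the fibroblast-enriched score.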
